A study of Mus musculus with 4 samples.

Results

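The comparison set the RNA of unirradiated mouse embryonic fibroblasts labelled Wip1-/- against that of unirradiated fibroblasts labelled Wip1+/+, on 2 of the 4 Affymetrix mouse whole-genome arrays of the study, with 1 array for each genotype. Its members were all probe sets that were not hybridization or other controls and that the platform annotation paired with 1 gene symbol, which held for 34945 of 45037 such probe sets and covered 18193 symbols. A probe set is a group of short oligonucleotides that read 1 stretch of a transcript, and many genes have several. Signals under a floor of 46.5, the 40th percentile of all values, were set to it before the log2 ratio of Wip1-/- over Wip1+/+ was taken. A probe set entered where its mean over the 4 arrays was at least 67.95, the median over the probe sets, and 20327 did. They belonged to 11547 genes, of which 5278 had at least 2 such probe sets and 6269 had 1. The other 6646 symbols had none. A probe set under the floor on both arrays of 1 genotype could pass only through the other genotype. The filter by itself then favours a ratio near 2-fold or more.

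The unirradiated cells were collected at 0 h without treatment, and the other 2 arrays held cells of the same genotypes 4 h after 5 Gy of gamma radiation. All 4 groups were mouse embryonic fibroblasts (MEFs), which are primary cells grown out of minced embryos and can carry other embryonic and blood-derived cells along. The labels used here give no embryo, litter, sex, strain or passage. They name no Cre driver or clone, and Wip1-/- is read here as a loss in all cells. With 1 array a group there was no replicate check, no difference between the genotypes could be tested, and each ratio compares 2 arrays, not 2 genotypes in general. The agreement between probe sets of a gene was used as a measure of error within the arrays, and it does not cover the spread between cultures. The irradiated pair shared no array with the unirradiated pair and is given beside it.

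Wip1, encoded by Ppm1d, is a serine/threonine phosphatase of the PPM family that p53 induces after DNA damage. It removes phosphates from ATM, CHK1, CHK2, p53 and the p38 MAP kinases, and so turns the damage response down again. Mice without it are known for defects of the immune system and of male reproduction, and fibroblasts without it for slow growth and early arrest. Cultured fibroblasts also make type I interferon at a low level, which keeps a set of antiviral genes on, in part through the factor IRF9.

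The fibroblast identity of the cells was clear on both arrays. Vim, an intermediate filament of mesenchymal cells, read 83654 on the Wip1-/- and 56634 on the Wip1+/+ array, and the collagen gene Col1a1 read 53682 and 33836. Thy1, a fibroblast surface protein, read 15673 and 8597, while Pdgfra was dim at 177 and 225. The Wip1-/- unirradiated array stood apart from the other 3. Its median signal was 85.8, against 68.4 to 72.6 on the others, although the trimmed mean was 500 on each. The ratio of the 3′ to the 5′ control probe set of Gapdh, a sign of RNA and labelling quality, was 0.981 on it and 0.701 to 0.726 on the others. The same ratio for beta-actin did not stand apart, at 1.25 on it and 1.215 to 1.225 on the others. The 18 spike-in hybridization controls, which carry the same added RNA on every array, had log2 ratios with an SD of 0.465 in the unirradiated pair and 0.0954 in the irradiated pair, and 5 of the 18 differed by at least 1.5-fold in the first and 0 in the second.

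The targeted gene did not check the labels. The brighter probe set of Ppm1d read 504 on the Wip1-/- and 375 on the Wip1+/+ array at 0 h, and 482 and 364 at 4 h. Its other probe set read 219 and 317 at 0 h, and 561 and 463 at 4 h. The arrays labelled Wip1-/- thus lay above those labelled Wip1+/+ in 3 of these 4 pairs and below in 1, and whether either probe set reads exons that the knockout removed was not given in the sources used here. The genotypes below are those of the labels.

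Judged by its brightest probe set, a gene was at least 2-fold lower on the Wip1-/- array in 789 cases (6.83% of 11547) and at least 2-fold higher in 593 (5.14%). Most of these differences were not shared by the other probe sets of the same gene. Of the 448 such genes with several probe sets, 46 (10.3%) were 2-fold apart in every probe set and in 1 direction, 170 (37.9%) had all probe sets on 1 side of 0 but not all at 2-fold, and 232 (51.8%) had another probe set at 0 or on the opposite side. Among the called genes whose brightest probe set averaged 500 or more, 16 of 235 (6.81%) had every probe set at 2-fold. In the irradiated pair 340 genes were lower (2.94%) and 271 higher (2.35%), and 34 of 142 genes with several probe sets (23.9%) had all of them at 2-fold, as did 12 of 44 (27.3%) with a mean of 500 or more. Within a gene, the probe sets' log2 ratios had a pooled SD of 0.649 in the unirradiated and 0.408 in the irradiated pair over 5278 genes, and 0.548 and 0.229 over the 2317 genes with several probe sets of mean signal 500 or more.

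**Figure D1:**
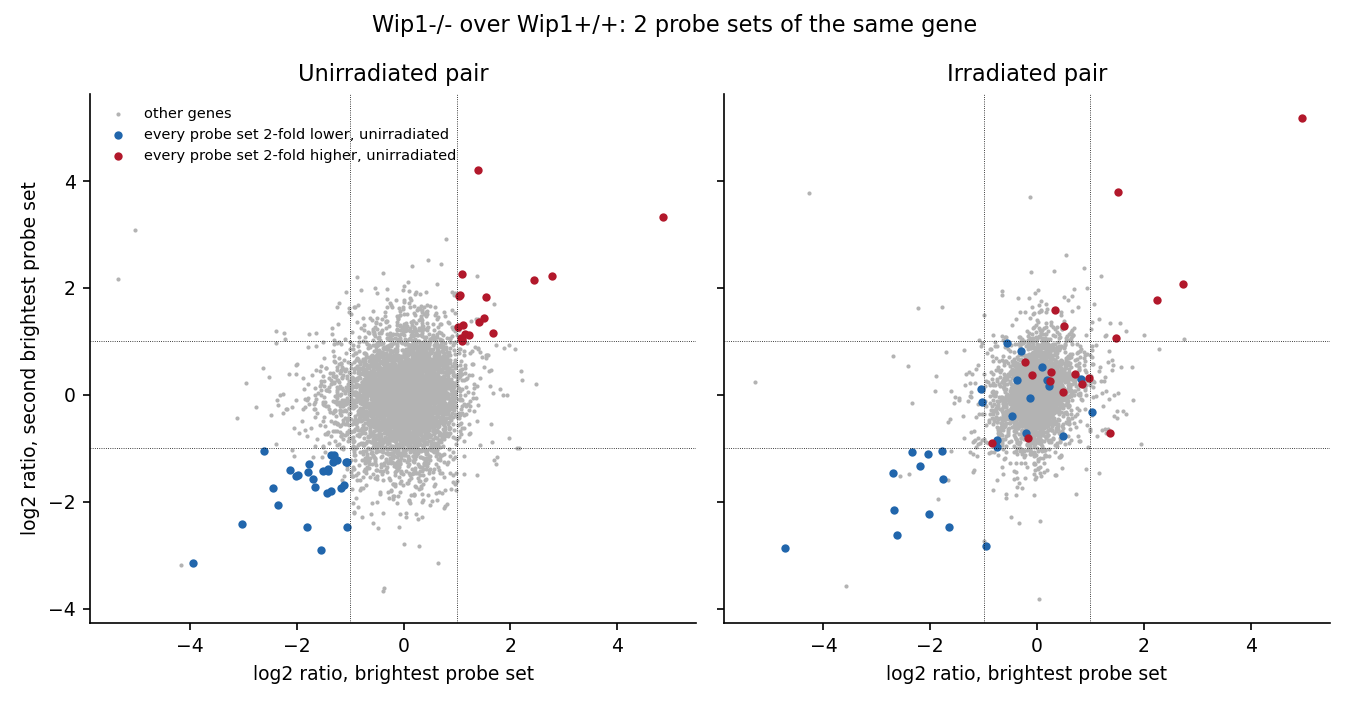
Log2 ratio of Wip1-/- over Wip1+/+ for the brightest (horizontal axis) and the second brightest (vertical axis) probe set of each of 5278 genes, in the unirradiated pair on the left and the irradiated pair on the right; dotted lines mark 2-fold. The cloud is wide in the unirradiated pair, where 28 genes (blue) were lower and 18 (red) higher in every probe set, and several of the same coloured genes lie near 0 in the irradiated pair.

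The genes whose probe sets all agreed at 2-fold numbered 28 lower (0.531% of 5278) and 18 higher (0.341%) on the Wip1-/- array. Where the arrays were scaled to the median of the brighter probe sets instead, the numbers were 25 lower and 27 higher, and those by the brightest probe set were 692 lower and 738 higher. Of the 28 lower genes, 10 also had every probe set at least 2-fold lower in the irradiated pair, 8 more had every probe set on the lower side, 6 were mixed and 4 had every probe set on the other side. Of the 18 higher genes these numbers were 5, 8, 3 and 2. The irradiated pair had 20 agreeing lower genes (0.379%) and 14 higher (0.265%), so that the shared genes made up 35.7% and 50% of the 2 lower lists and 27.8% and 35.7% of the 2 higher lists. No gene agreed at 2-fold in opposite directions.

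Genes of macrophages lay on the lower side. These phagocytes, which occur in fibroblast cultures from whole embryos, are marked by Csf1r, the receptor of their growth factor, by Adgre1 (F4/80) and Cd68, and by lysozyme and complement C1q. Of 18 measured lineage and surface genes 8 were at least 2-fold lower by the median over their probe sets and 0 higher, with a median log2 ratio of -0.91 and 16 below 0. Of 26 lysosomal and secreted genes 14 were lower and 2 higher, with a median of -1.09 and 22 below 0. Over all genes by the same rule, 5.46% were 2-fold lower, 4.61% higher and 48.4% below 0, and the median was 0.02. In these bulk cultures fewer cells of a type and less RNA per cell cannot be told apart.

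Lyz1, a lysozyme that digests bacterial walls, read 1101 on the Wip1-/- and 8923 on the Wip1+/+ array at 0 h, and 1565 and 9605 at 4 h, by its brighter probe set. Its other probe set read 500 and 2666 at 0 h, and 476 and 2945 at 4 h. Both probe sets were lower on both arrays labelled Wip1-/-, by 8.11-fold and 5.33-fold before irradiation. A further probe set of Lyz1 missed the filter with a mean of 65.6, and read 140 and 29.6 at 0 h and 33.8 and 58.9 at 4 h, so that Lyz1 no longer agreed without the filter. Lyz2, the lysozyme of macrophages in particular, read 899 and 4533 at 0 h, and 673 and 4986 at 4 h, a 5.04-fold difference before irradiation. Both passing probe sets of Lyz1 are of the kind that can cross-hybridize, and whether they also read Lyz2 was not tested. Ctss, which encodes the lysosomal protease cathepsin S, read 121 and 1287 at 0 h and 133 and 970 at 4 h, and was 10.6-fold lower at 0 h. C1qc, a chain of the first complement component, read 82.6 and 308 at 0 h and 80.0 and 374 at 4 h. In each of these genes both arrays labelled Wip1-/- lay below both labelled Wip1+/+.

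Among the surface genes, Adgre1 read 120 and 471 at 0 h and 153 and 357 at 4 h, and Cd68 105 and 370 at 0 h and 121 and 351 at 4 h. Tyrobp, a signalling adaptor of myeloid receptors, read 106 and 360 at 0 h and 106 and 430 at 4 h. Csf1r, with 3 probe sets, read 372 and 707 at 0 h and 333 and 768 at 4 h by the brightest, and its median difference was 1.90-fold, just under the threshold. Fcer1g, the shared chain of Fc receptors, read 20.4 and 283 at 0 h and was at least 6.08-fold lower. The Fc receptor Fcgr3 read 33.0 and 186 and the lectin receptor Clec4d 40.2 and 239 at 0 h. Fcer1g, Fcgr3 and Clec4d were thus below the floor on the Wip1-/- array and above it on the Wip1+/+ array. At 4 h Fcgr3 and Clec4d were also below the floor on the Wip1-/- array, at 27.2 and 42.1. Both passed the filter only through the Wip1+/+ arrays, so their count as 2-fold lower carries little weight. C3ar1, the receptor of complement fragment C3a, agreed over 3 probe sets, with signals of 71.0 and 249, 6.70 and 257, and 7.80 and 213 at 0 h. Ms4a6d, a membrane protein of myeloid cells, agreed over 2, at least 2.66-fold and 2.68-fold lower. Both of its probe sets were below the floor on the unirradiated Wip1-/- array and passed the filter only through the Wip1+/+ arrays. Their agreement therefore carries little weight, and Ms4a6d no longer agreed without the filter. Lcp1, an actin bundler of blood cells, agreed over 2.

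The summed signal of the 18 surface genes was 2179 on the Wip1-/- and 4847 on the Wip1+/+ array at 0 h, and 1928 and 4869 at 4 h. That of the 26 lysosomal and secreted genes was 16110 and 29980 at 0 h, and 12590 and 30820 at 4 h. Most of the difference in this second sum lay in Lyz1 and Lyz2, which read 1101 and 8923, and 899 and 4533, at 0 h. Each sum was thus lower on both arrays labelled Wip1-/-. In the irradiated pair 14 surface genes were 2-fold lower and 1 higher, and 14 lysosomal and secreted genes lower and 1 higher, where 2.68% of all genes were lower, 2.1% higher and 49.1% below 0; 8 and 13 genes were lower in both pairs. A few members went the other way. Acp5, an acid phosphatase of osteoclasts and some macrophages, read 260 and 39.4 at 0 h and 105 and 16.7 at 4 h. It was below the floor on both Wip1+/+ arrays and passed the filter only through the Wip1-/- arrays. The receptor Trem2 read 107 and 68.9 at 0 h and 112 and 26.9 at 4 h. Lcp2, an adaptor of blood cells, read 108 and 41.4 at 0 h but 46.1 and 87.1 at 4 h.

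Interferon-induced genes were lower as well. Of 27 measured antiviral effectors 13 were at least 2-fold lower and 1 higher, with a median log2 ratio of -0.98 and 26 below 0; in the irradiated pair 13 were lower and 1 higher with a median of -0.94, and 10 were lower in both pairs. Of 8 interferon-induced GTPases, which attack the vacuoles of intracellular parasites, 3 were lower and 0 higher in the unirradiated and 7 and 0 in the irradiated pair. The macrophage genes described above moved in the same direction on the same arrays, and their part in this result was not tested.

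Many of these genes share a promoter element, the interferon-stimulated response element (ISRE), to which IRF9 binds. Its core was searched as GAAA, any 2 bases and GAAA again, on both strands, overlapping matches included, from 250 bases before to 50 after the start of each gene. It was found in 9 of 22 measured antiviral genes with a promoter in the RefSeq table (40.9%) and in 6 of 7 GTPase genes (85.7%), against 1079 of 27025 genes in all (3.99%). Both lists were drawn up as interferon-induced genes, so these shares describe the lists and not the difference between the arrays. Of the genes at least 2-fold lower on the Wip1-/- array that had a promoter there, 6 of 10 antiviral and 3 of 3 GTPase genes held it. Usp18 and Rtp4, which lay farther below 0 than Bst2, had no match among the promoters searched. The stretches below come from some of the lower genes that held the element, and let it be read. They lie upstream of the start and come from RefSeq, build GRCm38.p6, written 5′ to 3′ on the gene's strand, with the match in capitals. A match in a promoter is a description and not evidence of binding.
Bst2, chr8:71537578-71537617, minus strand: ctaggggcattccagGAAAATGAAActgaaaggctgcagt
Ifit1, chr19:34640770-34640809, plus strand, match on the opposite strand: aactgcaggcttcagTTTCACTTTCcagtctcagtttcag
Irgm2, chr11:58214898-58214937, plus strand: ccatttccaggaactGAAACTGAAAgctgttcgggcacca
Igtp, chr11:58199507-58199546, plus strand: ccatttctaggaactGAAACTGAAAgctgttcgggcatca
Irgm1, chr11:48871426-48871465, minus strand: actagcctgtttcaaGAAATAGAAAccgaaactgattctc
The macrophage factor PU.1 binds GAGGAAGT, which was found on either strand in 3.69% of all promoters, in 5 of 21 lysosomal and secreted genes (23.8%) and in 1 of 10 surface genes. C1qc is shown as the example that lies farthest before its start among the lower genes.
C1qc, chr4:136893087-136893124, minus strand, match on the opposite strand: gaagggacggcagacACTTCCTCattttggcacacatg

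Usp18, a protease that removes the ubiquitin-like modifier ISG15 and limits interferon signalling, read 80.9 on the Wip1-/- and 1394.5 on the Wip1+/+ array at 0 h, and 122 and 1207 at 4 h. It was 17.2-fold lower before irradiation, the lowest of the genes with 1 probe set that were above the floor on both arrays. Rtp4, a receptor chaperone that interferon induces, read 85.4 and 885 at 0 h and 170 and 970 at 4 h. Bst2 (tetherin), which holds budding virus at the cell surface and whose promoter holds 2 matches, read 387 and 3255 at 0 h and 498 and 3175 at 4 h, an 8.40-fold difference before irradiation. Ifit1, a sensor of viral RNA, read 29.4 and 348 at 0 h and was at least 7.48-fold lower. Each of these genes was lower on both arrays labelled Wip1-/-.

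The RNA sensor Ifih1 (MDA5) read 157 and 693 at 0 h and 165 and 670 at 4 h, and Oasl2, of the oligoadenylate synthetase family, read 11.8 and 226 at 0 h. Dtx3l, a ubiquitin ligase that works with Parp9, was the antiviral gene whose probe sets all agreed: it was 2.47-fold and 2.19-fold lower, although at 4 h its probe sets had log2 ratios of -1.05 and 0.11. Parp9 itself read 180 and 824 at 0 h and 189 and 661 at 4 h. Irgm2, Igtp and Irgm1 are GTPases of the immunity-related family. They read 58.4 and 284, 148 and 365, and 1621 and 3527 at 0 h, and all 3 were also lower at 4 h. Ifi202b, a DNA-binding protein of the p200 family, was the exception. It read 553 and 4.60 at 0 h and 468 and 2.40 at 4 h, and was at least 11.9-fold higher on the Wip1-/- array at 0 h. Its probe set was below the floor on both Wip1+/+ arrays and passed the filter only through the Wip1-/- arrays.

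The factors that carry the interferon signal were divided. Of 19 measured, 2 were lower, 2 higher and 15 between, with a median log2 ratio of -0.09. Irf7, which drives interferon production, read 79.5 and 403 at 0 h and 138 and 361 at 4 h, and Irf9, which binds the ISRE, read 181 and 850 at 0 h and 398 and 836 at 4 h. Both are themselves induced by interferon. The receptor chain Ifnar1 read 1277 and 920 at 0 h, and Stat2 had a median log2 ratio of -0.67. Irf2 and Irf3 were higher at 0 h, with log2 ratios of 1.55 and 1.35, but had -0.72 and -0.13 at 4 h, and the probe sets of Irf3 ranged from 0.05 to 1.90.

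**Figure D2:**
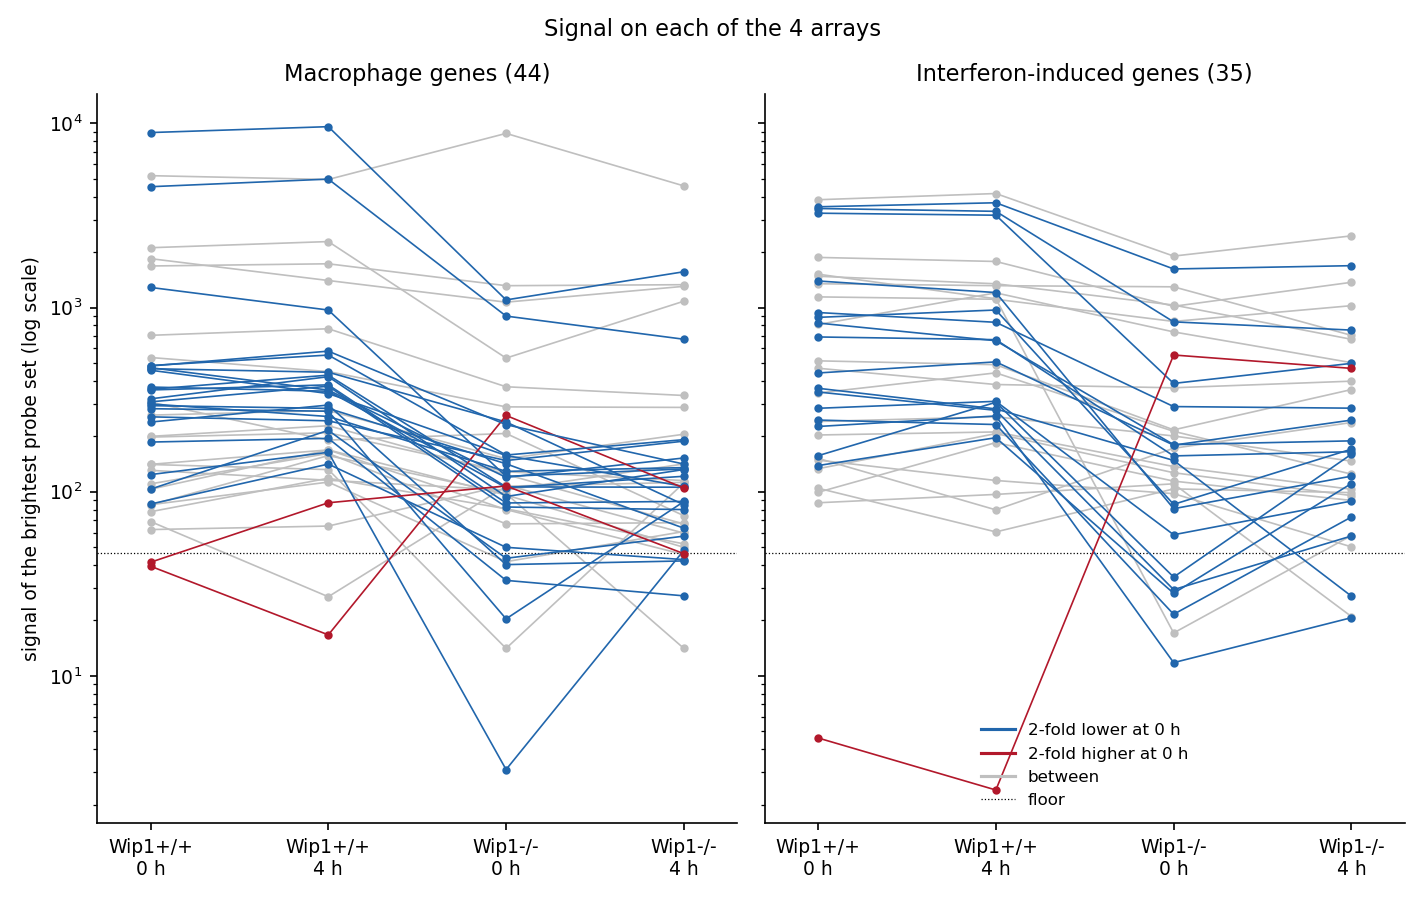
Signal of the brightest probe set (log axis) of 44 measured macrophage genes (left) and 35 interferon-induced antiviral and GTPase genes (right) on each of the 4 arrays, 1 line a gene; colours mark genes whose median over probe sets was 2-fold lower (blue) or higher (red) on the unirradiated Wip1-/- array, grey marks the genes between, and the dotted line is the floor of 46.5. Most blue lines run level between both Wip1+/+ arrays and lie lower on both Wip1-/- arrays; Lyz1 at the top left goes from 8923 to 1101 between the genotypes at 0 h.

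Of 15 measured genes of antigen presentation on MHC class I, 4 were lower and 0 higher, with a median of -0.42. Over all genes by the same rule, 5.46% were lower and 4.61% higher. The 4 were H2-M3, Psmb8, Pdia3 and Tapbp. Tapbp, which loads peptides on class I molecules, read 1090 and 2876 at 0 h and 1633 and 2760 at 4 h. Pdia3 read 15507 and 16421.5 at 0 h by its brighter probe set, and 56.2 and 313 by the other. The class I gene H2-D1 was not among the 4. By its brightest probe set it read 804 and 2596 at 0 h and 1581 and 2160 at 4 h. In the irradiated pair 1 of the 15 genes was 2-fold lower, Tap1, with 177 and 391 at 4 h. B2m, the shared light chain, read 29138 and 25351 at 0 h.

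Chemokines, which attract immune cells, lay on both sides: 5 of 19 were lower and 5 higher, where 5.46% and 4.61% of all genes were. Ccl6 and Ccl9, chemokines of myeloid cells, agreed over 2 probe sets each. Ccl6 read 4.00 and 203 at 0 h and 6.0 and 302 at 4 h by the brighter, at least 4.36-fold lower at 0 h. Both Ccl6 probe sets were below the floor on the Wip1-/- arrays and passed the filter only through the Wip1+/+ arrays. Ccl9 read 207 and 531 at 0 h and 148 and 671 at 4 h. Cxcl16, which macrophages carry on their surface, agreed at 0 h (44.5 and 285, 44.3 and 96.1) but read 196 and 140 at 4 h by the brighter probe set. On the other side, Ccl25, the chemokine of thymus and gut, agreed over 2 probe sets and read 209 and 78.5 at 0 h and 171 and 61.8 at 4 h. Ccl7, made by fibroblasts, read 1688 and 751 at 0 h and 1209 and 697 at 4 h, and Ccl20 read 278 and 74.4 at 0 h and 166 and 56.8 at 4 h. The cytokine Il6 was 2.34-fold higher at 0 h, with 398 and 170, while the adhesion receptor Icam1 read 42.0 and 155 at 0 h and 77.4 and 193 at 4 h. Of the 19 NF-kB targets and cytokines these belonged to, 3 were lower and 1 higher.

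Among genes outside these groups, Abcb10, a mitochondrial transporter that serves haem synthesis, agreed in both pairs. It read 234 on the Wip1-/- and 680 on the Wip1+/+ array at 0 h and 258 and 809 at 4 h by the brighter probe set. Cd59a, which keeps complement from lysing the cell's own membrane, read 529 and 2095 at 0 h and 508 and 2059 at 4 h, and its other probe set 544 and 1535 at 0 h and 353 and 1661 at 4 h. Zfp52, a zinc finger gene, read 324 and 1129 at 0 h and 244 and 1239 at 4 h. In these 3 genes every passing probe set was lower on both arrays labelled Wip1-/-.

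Other agreeing genes were less than 2-fold lower at 4 h, or on the other side, by the median over their probe sets. Hif3a, a relative of the hypoxia factors that can restrain them, read 31.9 and 254 at 0 h but 218 and 190 at 4 h, and its other probe set 27.3 and 155 at 0 h but 143 and 118 at 4 h. Here the unirradiated Wip1-/- array was low and the other 3 were alike. Akirin1, a small nuclear protein, read 2118 and 6853 at 0 h and 5803 and 6657 at 4 h, with 414 and 1238, and 763 and 1251, by its other probe set. St3gal6, a sialyltransferase, read 159 and 503 at 0 h and 478 and 235 at 4 h by its brighter probe set, which was thus 2.03-fold higher at 4 h, and 15.5 and 154, and 89.4 and 112, by the other. Pigv, an enzyme of GPI-anchor synthesis, was 2.72-fold and at least 3.57-fold lower at 0 h and had log2 ratios of 0.09 and 0.52 at 4 h. Dhx38, an RNA helicase of splicing, was 4.05-fold and 2.87-fold lower at 0 h and had -0.38 and 0.27 at 4 h. Itga8, an integrin chain of contractile mesenchymal cells, kept the direction, with 550 and 1569 at 0 h and 1021 and 1714 at 4 h, and was 1.68-fold and 1.80-fold lower at 4 h.

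Igf1, the insulin-like growth factor that mesenchymal cells secrete, had the most agreeing probe sets of any lower gene, 4. They read 217 and 512, 159 and 367, 159 and 339, and 132 and 278 at 0 h, 2.11-fold to 2.36-fold lower. At 4 h they read 198 and 682, 184 and 380, 164 and 380, and 154 and 251, so every probe set was lower on both arrays labelled Wip1-/-. The agreeing lower genes not yet named were Gm6958, 4833420G17Rik, Bpnt1, Cyp4f16, Efna1, Taf8, Colgalt1, Abtb2, Pdcl and Atp10a. Gm6958 was the farthest from 0 of the 28, with 57.2 and 879 at 0 h and 29.7 and 1228 at 4 h.

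On the higher side, Cap1, which recycles actin monomers, was the farthest from 0. It read 14875 on the Wip1-/- and 514 on the Wip1+/+ array at 0 h and 12120 and 388 at 4 h, and its other probe set read 4527 and 449 at 0 h and 10201 and 280 at 4 h. The differences before irradiation were 28.9-fold and 10.1-fold. Mgll, which breaks down monoacylglycerols and an endocannabinoid, agreed over 3 probe sets, which read 1923 and 279, 938 and 200, and 444 and 151 at 0 h, and 1402 and 295, 863 and 253, and 1062 and 212 at 4 h. Map2, a microtubule protein of neurons, also agreed over 3, the brightest at 508 and 93.1 at 0 h and 506 and 76.3 at 4 h. Supt16, a subunit of the histone chaperone FACT, read 2726 and 1037 at 0 h and 2624 and 912 at 4 h, and its other probe set was at least 18.4-fold higher at 0 h, with 854 and 42.4.

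The remaining higher genes named by the rule had a smaller difference or none in that direction at 4 h, by the median over probe sets. F2r, the thrombin receptor PAR1, was the brightest of them and read 37661 and 17026 at 0 h but 19357 and 16246 at 4 h, with 24784 and 11296, and 15400 and 11467, by its other probe set. Mfap5, a glycoprotein of elastic microfibrils, read 2309 and 986 at 0 h and 1787 and 992 at 4 h. Sim2, a transcription factor, read 901 and 283 at 0 h and 416 and 296 at 4 h. Adamtsl1, a matrix protein related to the ADAMTS proteases, agreed over 3 probe sets at 2.17-fold to 3.31-fold, and Stk35, a kinase, was 2.14-fold and at least 4.81-fold higher. Gper1, a membrane oestrogen receptor, read 203 and 70 at 0 h and 158 and 61.4 at 4 h by 1 probe set, and 254 and 71.1 at 0 h but 17.0 and 76.0 at 4 h by the other. Pgap6, of GPI-anchor processing, read 177 and 62.4 at 0 h and 44.7 and 52.0 at 4 h. The others were Vars2, Rgcc, Trim41, Slc2a3, Pde5a and Rims4.

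**Figure D3:**
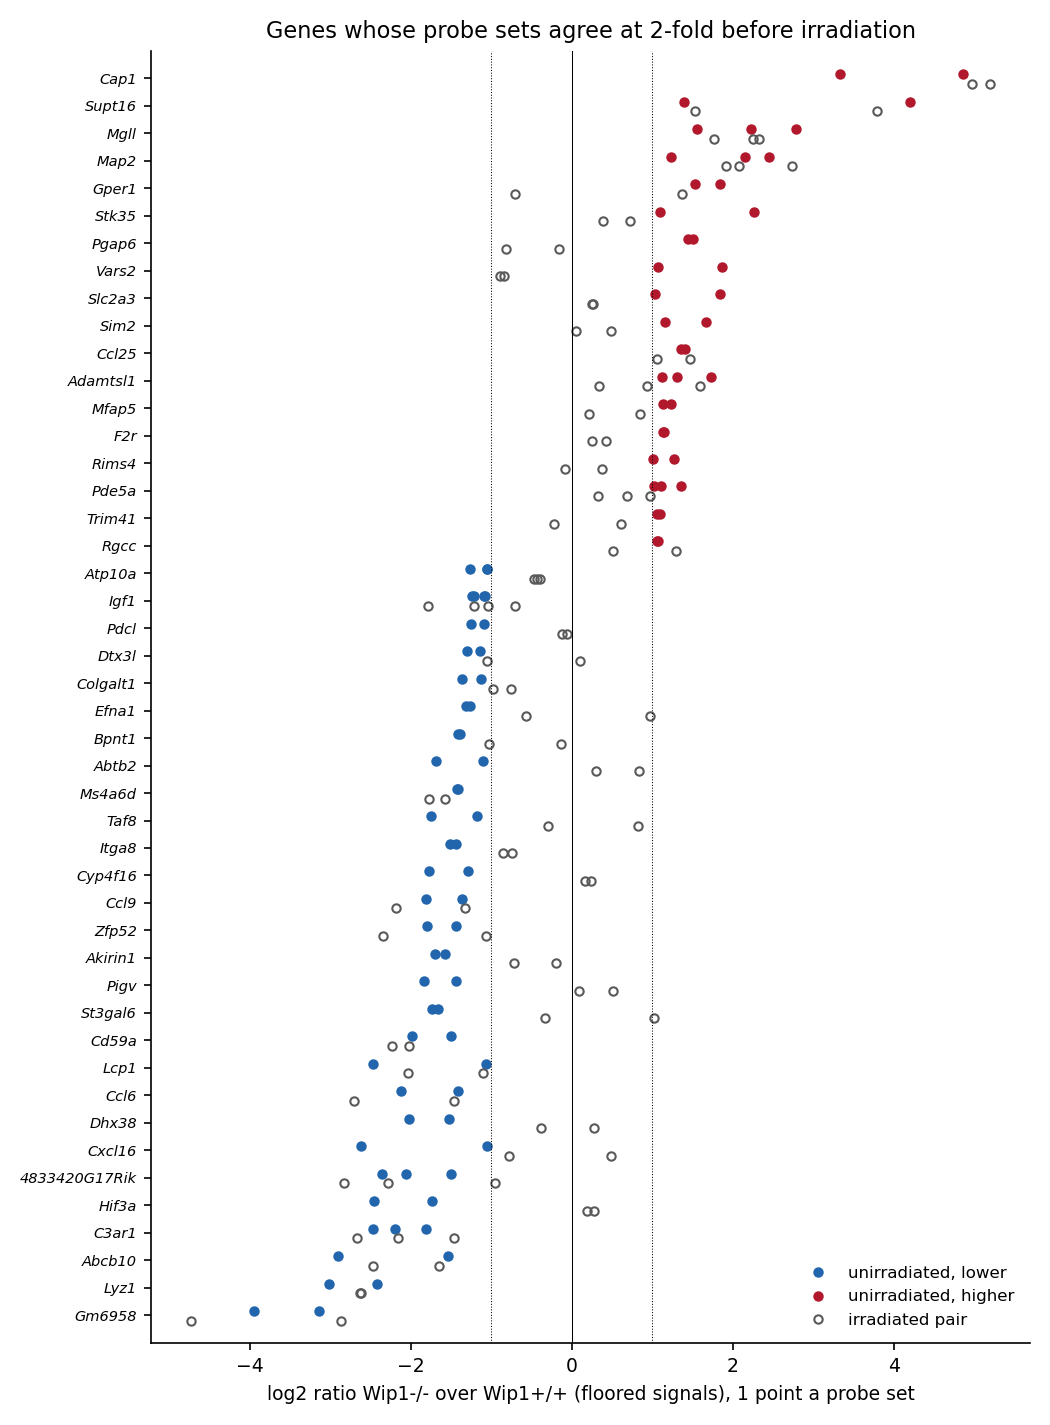
Log2 ratio of Wip1-/- over Wip1+/+ for every passing probe set of the 46 genes that agreed at 2-fold before irradiation; filled points are the unirradiated pair (blue lower, red higher), open circles the irradiated pair, and dotted lines mark 2-fold. The open circles of Gm6958, Lyz1, C3ar1 and Cap1 lie with the filled points, while those of Hif3a, Pigv and Cyp4f16 lie above 0.

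Among the 6269 genes with 1 probe set past the filter, 487 were at least 2-fold lower and 447 higher. Over all genes 6.83% were lower and 5.14% higher by the brightest probe set. Apoe, the lipid carrier that macrophages and other cells secrete, read 83.5 and 754 at 0 h and 162 and 777 at 4 h, and was with Usp18, Ctss and Rtp4 the lowest above the floor. Erdr1 was the highest, with 5541 and 189 at 0 h and 5944 and 160 at 4 h, 29.3-fold. Tmem87a, a membrane protein of the Golgi, read 1061 and 73.1 at 0 h and 797 and 5.40 at 4 h. Rbm45, an RNA-binding protein, read 2161 and 236 at 0 h and 2063 and 212 at 4 h, and Clec16a, which takes part in mitophagy, read 348 and 50.2 at 0 h and 242 and 35.5 at 4 h. All these genes differed in the same direction in both pairs, but none had another probe set past the filter to compare.

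The genes of the fibroblast's own matrix and contractile apparatus showed no common direction of this size. Of 25 collagens 1 was lower and 1 higher with a median of 0.26, of 41 matrix glycoproteins and fibroblast markers 4 were lower and 2 higher with a median of 0.12, and of 28 contractile genes 2 were lower and 1 higher with a median of 0.18. Some of the brightest among them were higher on the Wip1-/- array by less than 2-fold. Acta2, smooth muscle actin, read 96701 and 54985 at 0 h and 50762 and 50963 at 4 h, and fibronectin, Fn1, read 65852 and 41729 at 0 h and 40631 and 38286 at 4 h. In these probe sets the unirradiated Wip1-/- array was the high one and the other 3 were alike, while another probe set of Acta2 read 455 and 584 at 0 h. Across the 147 genes of mean signal 20000 or more the median log2 ratio of the brightest probe set was 0.22 in the unirradiated and 0.07 in the irradiated pair.

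Some matrix genes were lower. Efemp1 (fibulin-3) read 2042 and 7389 at 0 h and 3958 and 8043 at 4 h, Lum, a collagen-binding proteoglycan, read 96.0 and 339 at 0 h and 164 and 248 at 4 h, and Cd44, the hyaluronan receptor, had a median over 3 probe sets of -1.11. Inhba, which encodes the activin A subunit, was higher on both Wip1-/- arrays, with 21265 and 7312 at 0 h and 11632 and 5287 at 4 h. The growth factor receptor Met, with 2 probe sets, had a median of -1.41. The brighter read 320 and 590 at 0 h, 1.85-fold apart. The other read 15.5 and 178, below the floor on the Wip1-/- array. Of 39 fibroblast growth factors and receptors 4 were lower and 0 higher, where 5.46% and 4.61% of all genes were. In the irradiated pair 3 were lower and 3 higher. Angpt1, among the 4, had a log2 ratio of 1.12 there. The soluble Wnt inhibitors Sfrp1, Sfrp4 and Frzb were the 3 lower of 29 Wnt genes. At 4 h their log2 ratios were -0.03, 0.14 and 0.25, by the median over probe sets. The passing probe sets of Sfrp1 disagreed, from -2.32 to 0.68 at 0 h and from -2.51 to 1.01 at 4 h. The brightest of them had -1.49 and -1.25.

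The medians of the 2 lists of p53 targets were near 0 before irradiation, and few members differed by 2-fold. Of 26 targets of arrest and apoptosis 3 were lower and 0 higher, where 5.46% and 4.61% of all genes were, with a median log2 ratio of 0.00. These were Sfn (stratifin), with 13.0 and 178 at 0 h and 61.1 and 134 at 4 h, Rprm (reprimo), with 125 and 367 at 0 h and 311 and 477 at 4 h, and Perp, with 347 and 931 at 0 h and 463 and 1157 at 4 h. All 3 were lower on both Wip1-/- arrays, by less than 2-fold for Rprm at 4 h, and Sfn was below the floor on the Wip1-/- array at 0 h. Cdkn1a, the p21 inhibitor of cyclin-dependent kinases, read 8920 and 12735 at 0 h by its brighter probe set, with log2 ratios of -0.51 and 0.72 in its 2 probe sets, so that its direction was not settled. Mdm2, the p53 ubiquitin ligase, likewise had -0.04 and 0.51. Ccng1, cyclin G1, read 13635 and 28480 at 0 h and 31247 and 31743 at 4 h by its brightest probe set, with the unirradiated Wip1-/- array low and the other 3 alike. Another probe set read 7811 and 14378 at 0 h, but the remaining one 12785 and 13660, only 1.07-fold apart. Of 23 p53 targets of repair, metabolism and feedback 1 was lower, the autophagy gene Dram1 (233 and 516 at 0 h, 472 and 537 at 4 h), and 0 higher.

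Of 28 DNA damage kinases and sensors 1 was lower, Clspn, the adaptor through which ATR activates CHK1 (151 and 349 at 0 h, 332 and 368 at 4 h). Ung, the glycosylase that removes uracil from DNA, was the 1 higher, with 362 and 148 at 0 h but 72.8 and 134 at 4 h. Among Wip1's substrates, Atm had a median log2 ratio of -0.38, Chek1 of 0.44, Chek2 of 0.37 and Mapk14, the p38 alpha kinase, of 0.03. Of 15 phosphatases of the PPM family none was 2-fold apart, and their median was -0.38 in the unirradiated and -0.02 in the irradiated pair. The same held for 31 G2/M genes (median 0.04), 30 G1/S and replication genes (0.04) and 15 CDK inhibitors and pocket proteins (0.10), of which 0 were lower and 0 higher. The proliferation marker Mki67 read 1702 and 1364 at 0 h, and Cdk1, the kinase of mitosis, 3422 and 3220.

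**Figure D4:**
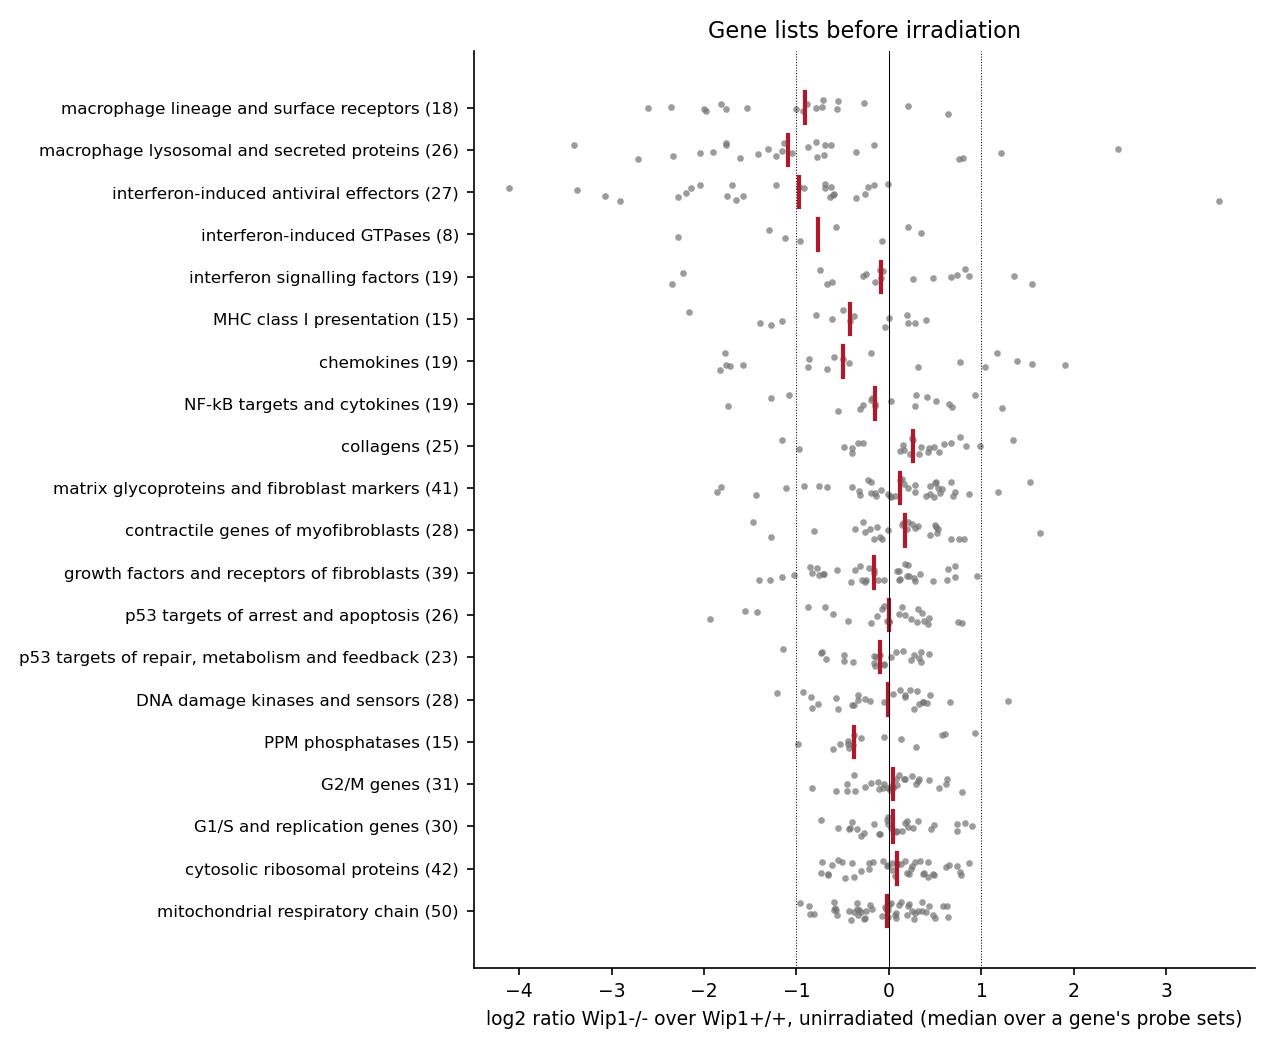
Log2 ratio of Wip1-/- over Wip1+/+ before irradiation for the measured members of 20 gene lists, 1 point a gene (median over its probe sets), with the number measured in brackets, the list's median as a red bar and 2-fold as dotted lines. The medians of the macrophage and antiviral lists lie near -1, from -0.91 to -1.09, while those of the p53, cell cycle, ribosomal and mitochondrial lists lie between -0.10 and 0.09.

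No member was 2-fold apart among 42 cytosolic ribosomal proteins (median 0.09), 50 mitochondrial respiratory chain genes (-0.02) or 13 housekeeping genes. The ribosomal and mitochondrial medians, like those of the DNA damage, Hox and limb patterning lists, changed sign under at least 1 other scaling of the arrays. Markers of further cell types were mostly dim. Of 12 measured epithelial genes 4 were higher and 0 lower, where 4.61% and 5.46% of all genes were, and 1 was higher in the irradiated pair. Krt7, a keratin of simple epithelia, read 478 and 120 at 0 h and 285 and 219 at 4 h. Dsp, the desmosomal plakin, read 556 and 151 at 0 h and 333 and 165 at 4 h by its brighter probe set. Cldn4 read 122 and 53.9 at 0 h and 70.6 and 47.9 at 4 h. Pkp1 read 113 and 37.6, the latter below the floor, at 0 h but 175 and 218 at 4 h. Of 8 endothelial genes 7 were above 0, with a median of 0.39: Kdr, a VEGF receptor, read 264 and 130 at 0 h and 149 and 147 at 4 h, and Flt1, another, had all 4 probe sets higher at 0 h with a median of 0.95. Emcn, an endothelial sialomucin, was the 1 below 0 and read 58.5 and 267 at 0 h and 116 and 239 at 4 h. The fatty acid receptor Cd36, which fat cells, endothelium and macrophages carry, read 24.8 and 272 at 0 h and 30.2 and 242 at 4 h. Its probe set was below the floor on both Wip1-/- arrays and passed the filter only through the Wip1+/+ arrays. All 3 measured genes of the Y chromosome were lower on both Wip1-/- arrays: Eif2s3y read 144 and 247, Kdm5d 36.1 and 119, and Uty 55.4 and 117 at 0 h. Xist, which is transcribed from the inactive X chromosome of female cells, read 926 and 1108 at 0 h and 1480 and 1119 at 4 h. The share of cells of each sex in the cultures is not given in the labels, and its part in the other differences was not tested.

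In 81 genes (1.53% of 5278) different probe sets were at least 2-fold apart in opposite directions, against 13 in the irradiated pair. Eif2s2, a subunit of the translation initiation factor eIF2, was the brightest: of its 6 probe sets 1 read 4414 and 10846 at 0 h and another 2957 and 1053. S100a10, the partner of annexin A2, read 7410 and 15002 by 1 probe set and 143 and 39.8 by another. Ddx5, an RNA helicase, read 1284 and 3173 by 1 probe set and 523 and 254 by another, Rab6a, a GTPase of Golgi traffic, 1360 and 3248, and 13087 and 6323, and Ptp4a2, a phosphatase, 2927 and 7599, and 12560 and 4852. In Rab6a the unirradiated Wip1-/- array was low in 1 probe set and high in the other, while the remaining 3 arrays read 2957 to 3248 and 6323 to 6695.

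The agreeing genes lay on 15 of the mouse chromosomes, with at most 6 on any of them, by the gene positions of GRCm38.p6. Because the cells differ at Ppm1d, the neighbourhood of that gene was also counted, a window chosen after the values were seen. Within 5 Mb of it on chromosome 11, 10 of 73 measured genes (13.7%) were at least 2-fold lower and 5 (6.85%) higher, against 5.45% and 4.6% of all placed genes. Within 20 Mb the numbers were 34 (7.46%) and 12 (2.63%) of 456. The lower genes within 5 Mb included the chemokines Ccl4, Ccl5, Ccl6 and Ccl9 and the schlafen genes Slfn2 and Slfn9, which immune cells express and interferon induces. Ccl5, Ccl6 and Slfn9 were below the floor on both Wip1-/- arrays and passed the filter only through the Wip1+/+ arrays. Slfn2 read 159 and 365 at 0 h and 104 and 419 at 4 h. Usp32, a ubiquitin protease near Ppm1d, read 1125 and 2553 at 0 h and 2906 and 3122 at 4 h.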

How the data were processed

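The authors deposited 1 signal per probe set and array, a linear intensity made with GCOS, per the submitters' processing notes; its version and settings were not given in the sources used here. The trimmed mean was 500 on each array, so the deposited intensity values were taken as scaled and were not normalized again.

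Log2 ratios were taken after the floor and filter stated above, with Python 3.11.15, numpy 2.4.6 and pandas 2.3.3, and plotted with matplotlib 3.10.9. Quantile and cyclic loess alternatives used R 4.3.3 and limma 3.58.1. The script was tested on simulated data. Other floors, filters, fold thresholds and scalings, and the irradiated pair, were tried as alternatives. No test was run. Arrays give no counts, so their number limits the precision.

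The 932 probe sets with several symbols and the 9160 not listed in the annotation were not used.

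Genes are named by rule: the 12 lowest and 12 highest agreeing genes by the probe set nearest to 0, the 4 lowest and 4 highest with 1 probe set, from each list its agreeing members and up to 4 others, 6 bright genes whose probe sets oppose, and Ppm1d; defining members are contrast, and genes that complete a count were added after their values were seen. Members and the 44 lists were chosen with earlier results of these data known. Sequences come from RefSeq tables of GRCm38.p6.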

Additional observations from a re-analysis of the deposited data

Results flagged for a closer look

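In 6 of the agreeing genes every probe set lay on one side of 0 in the unirradiated pair and on the other in the irradiated pair, and the difference between the pairs was not tested. The unirradiated minus the irradiated log2 ratio, each a median over probe sets, was -2.33 for Hif3a, -1.96 for Abtb2, -1.94 for Pigv and -1.73 for Cyp4f16, all lower on the unirradiated Wip1-/- array. It was 2.34 for Vars2 and 1.96 for Pgap6, both higher on it. Hif3a read 31.9, 254, 218 and 190 on the Wip1-/- and Wip1+/+ arrays at 0 h and at 4 h, in that order, and Vars2 read 352, 168, 121 and 218.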

How the results depend on the processing

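No paired analysis was possible because each group had 1 array. The genes that agreed at 2-fold (28 lower, 18 higher) became 117 lower and 76 higher where the probe sets only had to share a side and reach 2-fold in the median, 130 and 120 at 1.5-fold, and 5 and 1 at 3-fold. They were 26 and 28 without the filter (20 of the 28 and 15 of the 18 kept; Lyz1, Abcb10, Hif3a, St3gal6 and Mgll among those lost), 17 and 7 with it at the 67th percentile (13 and 6 kept), 10 and 5 with it at a mean of 500 (6 and 3 kept), and 18 and 18 without probe sets that can cross-hybridize (17 and 14 kept, Lyz1 not among them). By the brightest probe set, 789 lower and 593 higher became 922 and 1016 without the filter, 411 and 181 at the 67th percentile, 269 and 101 at a mean of 500, and 340 and 271 in the irradiated pair. Quantile normalization kept 28 lower and 16 higher genes, cyclic loess 27 and 15, and scaling to the brighter probe sets 25 and 18. The macrophage surface median moved to -1.65 at the 67th percentile and the lysosomal and secreted median to -1.99 at a mean of 500; the cause was not tested. Of 482 list medians under the alternatives 12 moved by at least 0.649, the pooled SD of single probe sets within a gene, and 470 did not. Most list medians lay nearer to 0 than that, so one counted as unmoved could still change sign. Of the named genes that were at least 2-fold apart, Bmp1 reversed to 0.29 at a mean of 500 and Psmb4 to 0.64 without cross-hybridizing probe sets. In the irradiated pair these reversed: Hif3a 0.23, St3gal6 0.35, Pigv 0.30, Pgap6 -0.49, Irf2 -0.72, Irf3 -0.13, Col4a6 0.088, Frzb 0.25, Sfrp4 0.14, Angpt1 1.12, Gatm 0.17, Hoxd9 0.18, Six2 -0.10, Ung -0.87, Dusp2 0.0265, Dusp8 -0.46, Ero1b -0.0254, Slc7a11 -0.75, Psmb4 0.21, Pkp1 -0.32, Cntn1 -0.0931, Sox10 -0.95 and Pax5 -0.60. A further 25 named genes under 2-fold also changed sign there. Signals near the floor carry little information, and a ratio against it is a lower bound.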

Other observations

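The other gene lists held scattered differences in the unirradiated pair, counted as above. Over all genes by the same rule, 5.46% were lower and 4.61% higher. Among stress pathways, 3 of 27 genes of the integrated stress and unfolded protein responses were at least 2-fold higher and 0 lower. These were Ero1b, Slc7a11 and Chac1. In the irradiated pair 0 of the 27 were higher and 0 lower, and Ero1b and Slc7a11 had log2 ratios of -0.03 and -0.75. Chac1, a glutathione-degrading enzyme that ATF4 induces, read 1319 on the Wip1-/- and 440 on the Wip1+/+ array at 0 h, and 1568 and 1125 at 4 h. Of 22 immediate early genes 1 was lower and 0 higher. This was Fos, with 25.6 and 206 at 0 h and 291 and 413 at 4 h. Of 26 Nrf2 targets and antioxidant enzymes 2 were lower and 1 higher, of 25 hypoxia and glycolysis genes 1 and 1, of 28 genes of cholesterol and fatty acid synthesis 1 and 1, and of 25 stress MAP kinases and dual-specificity phosphatases 1 and 2. Of 34 proteasome subunits 3 were lower and 0 higher. Psmc4, an ATPase of the regulatory particle, read 1550 and 6604 at 0 h and 7203 and 6699 at 4 h by 1 probe set, but 3644 and 4295 at 0 h by the other. Psmd6, a further subunit, read 502 and 6184 at 0 h and 489 and 6893 at 4 h by 1 probe set, but 6149 and 7930, and 7856 and 7646, by the other.

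Among developmental genes, 4 of 45 limb and mesoderm patterning factors were lower and 2 higher, and 2 of 25 Hox genes were lower and 0 higher. Over all genes these shares were 5.46% and 4.61%. Nr2f1, a nuclear receptor of early development, read 168 and 614 at 0 h and 572 and 607 at 4 h. Pax1, a factor of the sclerotome, read 158 and 351 at 0 h and 123 and 272 at 4 h, and was lower on both Wip1-/- arrays. Of 32 genes of the TGF-beta and BMP pathway 2 were lower and 1 higher, of 25 matrix proteases and inhibitors 1 and 0, and of 20 imprinted genes 1 and 0. The markers of other cell types were few: 8 endothelial (1 lower, 1 higher), 12 skeletal muscle (1 and 0), 11 neural and glial (1 and 3), 8 adipocyte (1 and 1), 7 chondrocyte and bone (0 and 0), 4 erythroid (0 and 0), and 2 lymphocyte and mast cell genes (0 and 1) were measured.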
